A study of Mus musculus with 14 samples.

Results

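The axon guidance families are secreted or membrane-bound cues and the receptors that read them, and the gene symbols of these families picked out 99 of the 22690 probe sets on the array, for 58 of its 12393 named genes. The symbols taken were those of the class 3 to 7 semaphorins, plexins, neuropilins 1 and 2, Eph receptors, ephrins, Slits, Robos 1 to 4, netrins, Unc5 receptors and neogenin. One gene that the symbols catch, Unc50, belongs to none of these families and is given apart. The genes were measured in whole inguinal mammary glands (the number 4 pair) of untreated female CD1 mice, an outbred strain, at 3, 4, 5, 6 and 7 weeks of age, called 3wk to 7wk below. There were 3 arrays at each age but 5wk, which had 2. For each array, RNA from a minimum of 3 mice was pooled, the lymph nodes had been taken out, and no genotype, transgene or agent is named for any age. The glands were not sorted, so each value is a sum over epithelium, fat, vessels, nerve and immune cells, and in it fewer cells of a type and less RNA per cell cannot be told apart. The labels do not say whether the pools of an age share mice, so the p-values measure only the spread between these pools.

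Guidance cues were named for steering axons, but the same ligands and receptors act where epithelial tubes and vessels grow. Semaphorins signal through plexins, with neuropilins as the co-receptors of class 3 members. Netrin 1 is read by neogenin, Dcc and the Unc5 receptors, Slits by Robos, and ephrins by Eph receptors on touching cells, with signals running both ways. In the pubertal mammary gland, where ducts invade the fat pad behind bulbous terminal end buds, netrin 1 and neogenin help to hold the cap and body cell layers of the bud together, Slits acting on Robo1 restrain side branching, and EphA2 takes part in branching.

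Few of these genes passed the test for a change in the whole gland over puberty. Of the 73 probe sets (51 genes) with enough signal to test, 2 differed over the 5 ages (adjusted p under 0.05, the threshold throughout), which were 1 probe set each of the ligands Sema4d and Ntn1 and made up 2.74% of the 73. Over all 18511 probe sets tested the share was 10.3%, but the guidance probe sets were measured less precisely. The median SE of the log2 difference between 3wk and 7wk was 0.33 in the 73 and 0.22 over all. The median size of that difference was 0.30 in the 73 and 0.27 over all, so the lower share of calls does not show smaller changes. Between 3wk and 7wk Sema4d, Ntn1 and the receptor Epha1 rose and the co-receptor Nrp1 fell. With 6wk and 7wk together set against 3wk and 4wk together, a comparison called late against early here, Sema4d, Ntn1 and Sema5a rose while Nrp1, Nrp2 and Plxna2 fell. No guidance probe set was called between 1 week and the next.

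Every value below is the deposited ratio, in which a probe set is divided by its median of 14 arrays, so 1 is the middle of the series, and ratios of different genes say nothing about which is more abundant. A log2 difference of 1 is a doubling. The level before that division could be recovered for 46 of the 99 guidance probe sets as a whole number of steps, the smallest unit in which an array's signals had been written. The 26 that passed 200 steps on no more than 1 array were taken as too faint to test. They include all probe sets of Epha3, Epha5, Epha7, Epha8, Ntn4, Sema3e and Slit1, so 7 of the 58 genes are without a test. The 3 probe sets of Sema3e, a ligand of Plxnd1, peaked at 143, 21 and 88 steps. The single Ntn4 probe set had a median of 54 steps and a highest value of 331. The single Slit1 probe set had a median of 63 steps and a highest value of 308. Those 26 probe sets fall mainly in 2 families, with 11 of the 19 for Eph receptors and 11 of the 33 for semaphorins. Among the 73 that were tested, 20 had a median at or under 200 steps, and their residual SD (log2 scale, median over probe sets) was 0.75. It was 0.33 in the other 53, so a given change was harder to detect in the faint ones.

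The arrays also differed in ways that follow age. The mean of the hybridisation controls, bacterial and phage transcripts added in fixed amounts, was 0.15 ± 0.40 (log2, SD, n = 3) at 3wk and -1.21 ± 0.58 at 7wk, with no overlap. The 5' to 3' ratio of the pyruvate carboxylase control, a sign of how intact the RNA was, was lowest at 6wk (-2.37 ± 0.50) and highest at 7wk (0.82 ± 0.08). With the hybridisation controls as a covariate none of the calls of guidance probe sets remained, although no called difference turned. Over all probe sets tested, that covariate gave 352 calls between 3wk and 7wk in place of 1579, and 783 late against early in place of 3045. With the pyruvate carboxylase ratio as a covariate, 1 guidance call between 3wk and 7wk remained, that of Sema4d, with 0 late against early and 2 over the 5 ages. With the hybridisation controls Sema4d was 1.01 higher at 7wk (log2, SE 0.27, limma adjusted p = 0.0904).

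Sema4d, a membrane semaphorin that can be shed and that binds plexin B1, gave the firmest result. The promoters of its annotated start sites are shown because it is the one called gene whose windows held any of the motifs searched. Each window is the 250 bases before a start in RefSeq's annotation of GRCm38.p6, read 5' to 3' on the gene's strand, and capitals mark the matches. The first holds TGANTCA, a loose search string for AP-1 sites in which N is any base. The match here is TGAATCA, and whether AP-1 binds this form was not tested. The second and the third hold CCAAT, the letters bound by NF-Y, read on one strand or the other (ATTGG is CCAAT on the opposite strand).
Sema4d, chr13:51748811-51749060, minus strand: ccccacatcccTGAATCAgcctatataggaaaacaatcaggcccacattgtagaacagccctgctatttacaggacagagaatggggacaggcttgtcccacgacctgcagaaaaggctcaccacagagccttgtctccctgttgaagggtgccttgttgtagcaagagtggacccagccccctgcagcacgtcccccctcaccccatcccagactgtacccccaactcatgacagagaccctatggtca
Sema4d, chr13:51756684-51756933, minus strand: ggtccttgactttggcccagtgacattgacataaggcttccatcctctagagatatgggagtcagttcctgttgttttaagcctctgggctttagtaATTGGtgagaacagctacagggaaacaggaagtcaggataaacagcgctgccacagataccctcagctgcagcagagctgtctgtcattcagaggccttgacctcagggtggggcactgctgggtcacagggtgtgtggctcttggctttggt
Sema4d, chr13:51739447-51739696, minus strand: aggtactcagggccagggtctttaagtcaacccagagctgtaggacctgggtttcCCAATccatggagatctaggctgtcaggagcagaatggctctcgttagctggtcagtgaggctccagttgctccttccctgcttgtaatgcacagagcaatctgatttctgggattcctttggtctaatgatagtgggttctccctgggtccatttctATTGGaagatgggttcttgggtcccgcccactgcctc
Of 32851 promoters of that length, 6.75% held TGANTCA, 33.8% held CCAAT and 9.99% held AGATAA, the letters bound by GATA factors, on either strand. The 3 motifs do not overlap in the windows shown, and AGATAA is in none of them. A match is only these letters in that window. Promoters were found for 6 of the 7 called genes, 8 windows in all, and those of Epha1, Nrp1, Nrp2, Plxna2 and Sema5a held none of the 3 motifs.

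The ratios of Sema4d (probe set 1420824_at) were 0.521, 0.837 and 0.657 at 3wk, 0.732, 0.795 and 0.777 at 4wk, 1.22 and 0.937 at 5wk, 1.183, 1.063 and 1.3 at 6wk, and 1.377, 1.346 and 1.471 at 7wk. Every array at 6wk and 7wk was above every array at 3wk and 4wk, with 5wk B between them and 5wk A within the late range. The mean went from 0.672 ± 0.159 (SD, n = 3) at 3wk to 1.40 ± 0.0651 (n = 3) at 7wk. The fit, on log2 ratios, put the rise at 2.12-fold, a log2 difference of 1.08 (SE 0.17, 95% interval 0.70 to 1.46, limma adjusted p = 0.00337). Late against early the difference was 0.85 (SE 0.12, adjusted p = 0.00104), and over the 5 ages the adjusted p was 0.00935. All 3 calls held whichever of the 14 arrays was omitted. The other Sema4d probe sets, 1434596_at and 1420823_at, never passed 108 and 290 steps and were too faint to test. Their mean ratios went in opposite directions from 3wk to 7wk, from 1.83 to 0.574 in the first and from 0.764 to 1.45 in the second. Sema4d is also made by lymphocytes. The mean log2 ratio of the lymphocyte markers was 0.38 ± 0.47 at 3wk, -0.53 ± 0.16 at 6wk and 0.59 ± 0.57 at 7wk, and 0 of the 6 tested were called in either comparison. The part of lymphocytes in the rise of Sema4d was not tested.

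Ntn1 encodes the secreted ligand of neogenin, Dcc and the Unc5 receptors. Its probe set 1454974_at was at 0.626, 0.734 and 0.757 at 3wk, 0.683, 0.912 and 0.904 at 4wk, 1.127 and 1.232 at 5wk, 0.983, 1.017 and 1.158 at 6wk, and 1.024, 1.225 and 1.235 at 7wk. The 3wk and 4wk arrays all lay below the later ones, and the 5wk arrays were already as high as those at 7wk. At 7wk it was 1.65-fold its 3wk value (log2 0.72, SE 0.15, adjusted p = 0.0139), and late against early it was 0.53 higher (SE 0.11, adjusted p = 0.00619). The F test over the ages gave an adjusted p of 0.0272. That call held in 8 of the 14 fits that omit an array. It was lost without any 1 of the 3wk arrays, 5wk B, 7wk B or 7wk C. The 7wk call was lost without array 7wk B (0.68, adjusted p = 0.0534) or 7wk C (0.67, adjusted p = 0.0559), and the late call held with any 1 array omitted.

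The second Ntn1 probe set, 1422987_at, did not share this course. It was at 0.428, 1.108 and 1.252 at 3wk, 0.683, 0.955 and 1.086 at 4wk, 0.995 and 1.436 at 5wk, 0.626, 0.811 and 0.306 at 6wk, and 1.143, 1.005 and 1.242 at 7wk. The 3wk arrays overlapped those of every other age, and the 6wk arrays all lay below those at 5wk and 7wk. Neither difference was called (log2 0.42, SE 0.43 for 7wk against 3wk, and -0.15, SE 0.30 late against early). Averaged over both probe sets, Ntn1 was no longer called in either comparison (0.57, adjusted p = 0.191, and 0.19, adjusted p = 0.517).

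The netrin receptors showed no called change. Neo1, the neogenin gene, was at 0.742, 0.851 and 0.697 at 3wk, 1.195, 0.579 and 1.121 at 4wk, 1.073 and 1.029 at 5wk, 1.308, 1.208 and 1.101 at 6wk, and 0.864, 0.916 and 0.971 at 7wk. The 7wk arrays were all above those at 3wk by a small margin, and the 6wk arrays were higher than either. The 7wk difference was 0.27 (95% interval -0.24 to 0.77) and the late difference 0.33 (-0.03 to 0.69), so a doubling lies outside both intervals. Unc5b, a netrin receptor also found on vessels, was at 0.476, 1.365 and 1.398 at 3wk, 1.619, 1.306 and 1.152 at 4wk, 0.912 and 0.136 at 5wk, 0.951, 0.416 and 1.36 at 6wk, and 1.049, 0.824 and 0.479 at 7wk. Its arrays varied several-fold within an age, and the 7wk interval of -1.87 to 1.11 includes both a halving and a doubling. The 7wk differences of the Unc5c probe sets were -0.28 and -0.27, and that of Ntn3, another secreted netrin, was 0.25, none called. Dcc, the receptor outside the symbol rule, had a 7wk difference of -0.42 (SE 0.23, adjusted p = 0.288).

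**Figure D1:**
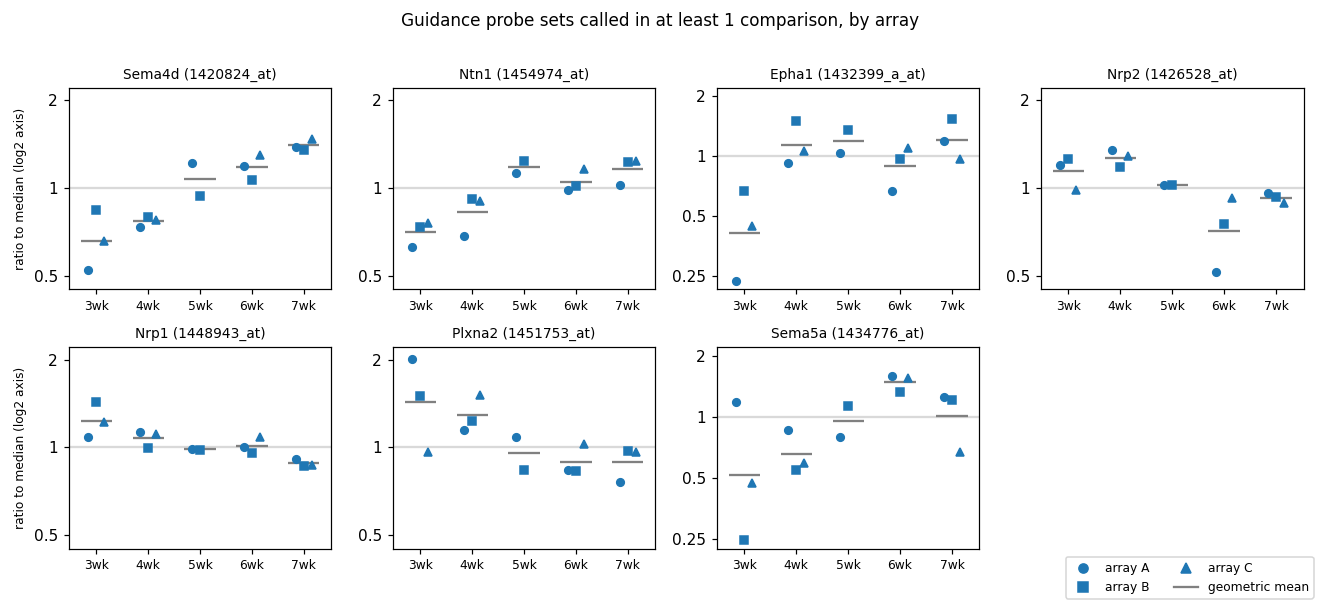
Deposited ratio to the median of 14 arrays (log2 axis) against age for the 7 guidance probe sets called in at least 1 comparison. Points are arrays A, B and C of an age and the bar is their geometric mean: Sema4d climbs from 0.521 to 0.837 at 3wk to 1.346 to 1.471 at 7wk, while Nrp1 ends at 0.865 to 0.915.

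Among the semaphorins, 22 probe sets of 16 genes were tested, and apart from Sema4d only Sema5a was called. Sema5a encodes a membrane semaphorin with thrombospondin repeats. Its probe set 1434776_at was at 1.181, 0.245 and 0.472 at 3wk, 0.864, 0.546 and 0.588 at 4wk, 0.793 and 1.136 at 5wk, 1.589, 1.32 and 1.551 at 6wk, and 1.256, 1.204 and 0.67 at 7wk. The 6wk arrays were the highest, but 1 array at 3wk and 1 at 7wk crossed into the other range. The late difference was 1.07 (SE 0.33, adjusted p = 0.0466). It was called with only 2 of the 14 arrays omitted in turn, and without one of the other 12 its adjusted p ran up to 0.10 (4wk B, difference 1.01). The 7wk difference was 0.96 (SE 0.47, adjusted p = 0.249). The second probe set, 1422167_at, differed by -0.07 late against early (SE 0.21) and was not called.

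Sema3c, a secreted class 3 ligand of neuropilins, was at 0.774, 0.991 and 0.785 at 3wk, 1.051, 1.009 and 0.897 at 4wk, 0.735 and 1.042 at 5wk, 1.113, 0.888 and 0.739 at 6wk, and 1.049, 1.05 and 1.171 at 7wk. The 7wk arrays were all above those at 3wk and 5wk, and the 4wk and 6wk arrays overlapped both 3wk and 7wk. The difference between 7wk and 3wk, 0.37 (95% interval -0.04 to 0.77), was not called. Both tested probe sets of Sema4a, a membrane semaphorin of immune and epithelial cells, were higher at 7wk, by 0.60 and 0.36, with adjusted p of 0.147 and 0.202. Over the family the 7wk differences ran from -0.91 to 2.13 with a median of 0.24, and 16 of 22 were above 0. Over all probe sets tested the median was 0.08, with 58.6% above 0.

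The largest of these differences, 2.13, belongs to Sema3f (1425840_a_at), a class 3 ligand that prefers Nrp2, and shows how much the faint probe sets vary. It was at 0.483, 0.367 and 0.294 at 3wk, 2.776, 1.12 and 1.418 at 4wk, 0.88 and 0.249 at 5wk, 0.118, 0.271 and 1.449 at 6wk, and 1.236, 1.805 and 1.957 at 7wk. The 3wk arrays and 3 of the 5 at 5wk and 6wk were low while the 4wk and 7wk arrays were high, an order that does not follow age. Its median was 125 steps and the 7wk difference was not called (adjusted p = 0.120). The second Sema3f probe set differed by -0.33, in the other direction.

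Late against early, 11 of the 22 semaphorin probe sets were above 0, with a median of 0.05, where 56.1% of all probe sets tested were above 0. Of the 15 probe sets of their receptors, the plexins and neuropilins, 8 were below 0 at 7wk against 3wk (median -0.29) and 11 late against early (median -0.21, against 0.05 over all probe sets tested). Of these 15, 3 are of Nrp1 and 4 of Plxnc1, so they are not separate genes. Late against early 3 of the 15 fell, as did 6.30% of all probe sets tested, and the difference between the families was not tested. Nrp1, a co-receptor for class 3 semaphorins and for VEGF, fell in probe set 1448943_at, from 1.085, 1.428 and 1.218 at 3wk, through 1.127, 0.997 and 1.108 at 4wk, 0.988 and 0.982 at 5wk, and 1.003, 0.956 and 1.089 at 6wk, to 0.915, 0.865 and 0.867 at 7wk. Every 7wk array was below every array of the other ages. The mean was 1.24 ± 0.173 at 3wk and 0.882 ± 0.0283 at 7wk. In the fit, on log2 ratios, the 7wk value was 0.714-fold that at 3wk (log2 -0.49, SE 0.12, adjusted p = 0.0344). The late difference of -0.29 had an adjusted p of 0.0474.

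Both Nrp1 calls are narrow. The first was lost without 3wk B (-0.38, adjusted p = 0.112), 3wk C, either 5wk array or any 7wk array, with adjusted p from 0.0508 to 0.0982 for those 6. The second held in 1 of the 14 fits that omit an array, with adjusted p up to 0.0983 (without 4wk A). With the replicate letter as a block the adjusted p were 0.0566 and 0.0696. The direction was shared by the gene's other probe sets. Probe set 1448944_at was at 1.666, 1.097 and 0.994 at 3wk, 1.159, 1.01 and 0.993 at 4wk, 0.727 and 0.638 at 5wk, 1.175, 1.074 and 1.006 at 6wk, and 0.983, 0.822 and 0.561 at 7wk. It was lower at 7wk than at 3wk with no overlap, although its 5wk mean was lower still (0.682 against 0.789), and the difference of -0.67 (SE 0.23, adjusted p = 0.0981) was not called. Probe set 1418084_at differed by -0.77 (SE 0.27, adjusted p = 0.109). Averaged over its probe sets, Nrp1 was called in both comparisons (-0.64, adjusted p = 0.023, and -0.38, adjusted p = 0.0336).

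Nrp2, the co-receptor for Sema3f and for VEGF-C, was at 1.2, 1.251 and 0.98 at 3wk, 1.344, 1.175 and 1.28 at 4wk, 1.021 and 1.02 at 5wk, 0.513, 0.752 and 0.926 at 6wk, and 0.961, 0.929 and 0.887 at 7wk in probe set 1426528_at, its only one. All 6 late arrays were below all 6 early ones, with the lowest values at 6wk. The late mean was 0.828 ± 0.171 and the early mean 1.20 ± 0.125. In the fit, on log2 ratios, the late value was 0.676-fold the early one (log2 -0.57, SE 0.13, adjusted p = 0.0151). The call held with any 1 array omitted. It was lost without both 6wk A and B (-0.37, adjusted p = 0.0664). With the 5' to 3' ratio of the actin control as a covariate it was lost as well (-0.41, adjusted p = 0.212). The difference between 7wk and 3wk alone was -0.30 (95% interval -0.71 to 0.12) and was not called. Of the VEGF genes themselves, Vegfa fell late against early (-0.51, SE 0.10, adjusted p = 0.00489) and Vegfc rose (0.94, SE 0.15, adjusted p = 0.00171). At 7wk against 3wk neither Vegfa (-0.28, adjusted p = 0.251) nor Vegfc (0.10, adjusted p = 0.818) was called.

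Plxna2, a plexin that pairs with neuropilins and also binds class 6 semaphorins, was at 2.012, 1.502 and 0.964 at 3wk, 1.146, 1.232 and 1.507 at 4wk, 1.084 and 0.839 at 5wk, 0.834, 0.827 and 1.029 at 6wk, and 0.761, 0.971 and 0.964 at 7wk. The early arrays were higher and more spread, and 1 of them, 3wk C, lay among the late ones. The late difference of -0.60 (SE 0.17, adjusted p = 0.0350) was lost on omitting any 1 of 9 arrays (3wk A, 3wk B, 4wk B, 4wk C, 6wk A, 6wk B and the 7wk arrays), with adjusted p from 0.0513 to 0.0805. With the replicate letter as a block it was 0.059. Plxnd1, the vascular receptor for Sema3e, was at 0.827, 1.722 and 1.625 at 3wk, 0.867, 1.001 and 1.541 at 4wk, 0.999 and 0.749 at 5wk, 0.554, 0.559 and 1.144 at 6wk, and 1.117, 0.972 and 1.074 at 7wk. Its ages overlapped and its late difference of -0.48 (95% interval -1.02 to 0.05) was not called. Plxnb2, an epithelial plexin, differed in the other direction, 0.64 higher late than early (adjusted p = 0.0804).

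The endothelial markers measured beside these receptors moved little as a list. Their mean log2 ratio was -0.10 ± 0.28 at 3wk, peaked at 0.27 ± 0.17 in the 4wk arrays and ended at -0.16 ± 0.22 at 7wk, with 3wk and 7wk overlapping. Of 8 tested, Vwf rose late against early (0.96, adjusted p = 0.00128) and Cdh5 fell (-0.87, adjusted p = 0.0204). Brown adipocyte markers, high in young glands, averaged 1.94 ± 0.27 at 3wk but only -0.66 ± 0.43 by 7wk, and 5 of 6 were called lower in both comparisons. White adipocyte markers went from 0.09 ± 0.06 to -0.17 ± 0.05, with 2 of 6 called lower at 7wk. The part of any of these cells in the falls of Nrp1, Nrp2 and Plxna2 was not tested.

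Slits are secreted cues that repel through Robos. All 5 tested probe sets of this family were above 0 at 7wk against 3wk (0.01 to 1.80, median 0.29), where 58.6% of all were, none called. Slit2 was at 0.348, 1.069 and 0.864 at 3wk, 0.671, 0.797 and 0.882 at 4wk, 1.034 and 1.192 at 5wk, 0.966, 1.09 and 1.255 at 6wk, and 0.966, 1.17 and 1.121 at 7wk. One 3wk array was far below all others, and another 3wk array reached the late range. Slit2 differed by 0.66 (95% interval -0.06 to 1.38) at 7wk, or by 0.17 without 3wk A. Slit3 was at 0.91, 0.889 and 1.205 at 3wk, 0.893, 0.853 and 1.122 at 4wk, 1.217 and 0.873 at 5wk, 0.947, 1.207 and 0.877 at 6wk, and 1.153, 1.474 and 1.053 at 7wk. Its ages overlapped throughout, with a difference of 0.29 (-0.16 to 0.74).

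Robo1, the receptor through which Slits restrain branching, was at 0.0699, 0.578 and 0.636 at 3wk, 0.58, 0.489 and 0.894 at 4wk, 1.294 and 1.187 at 5wk, 1.293, 1.383 and 1.594 at 6wk, and 1.106, 0.772 and 1.269 at 7wk. The 5wk and 6wk arrays were all above the early ones, and 7wk B lay within the early range. The late difference of 1.48 (SE 0.47, 95% interval 0.46 to 2.50) had an adjusted p of 0.0509. The 3wk A array, at 8 steps, sets much of its size and its spread. Without it the late difference was 0.96 with an adjusted p of 0.00626, and the 7wk difference 0.76 in place of 1.80 (adjusted p = 0.13 and 0.125). Its median was 112 steps, so this is a faint probe set. Robo4, an endothelial Robo, differed by 0.09 at 7wk and -0.25 late against early, neither called.

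**Figure D2:**
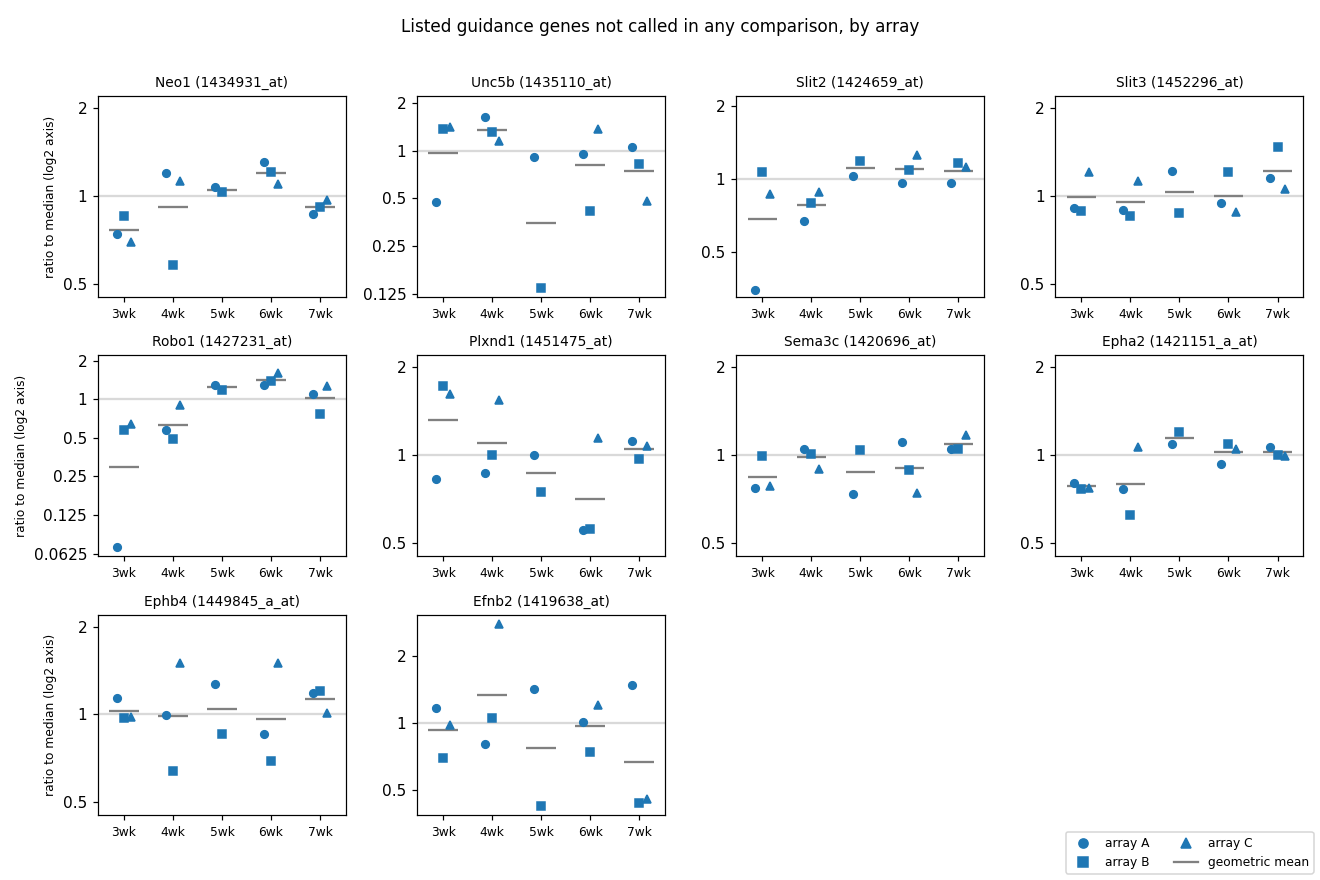
Deposited ratio to the median of 14 arrays (log2 axis) against age for 10 guidance genes of known mammary or vascular roles that were not called. Points are arrays and bars geometric means: Robo1 and Slit2 each have 1 low array at 3wk (0.0699 and 0.348), and the arrays of Unc5b spread from 0.136 to 1.619.

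Eph receptors are tyrosine kinases read by contact with ephrins on a neighbouring cell. All 8 tested probe sets (7 genes) were above 0 at 7wk against 3wk, from 0.10 to 1.55 with a median of 0.28. Of all probe sets tested 58.6% were above 0. In this family 1 was called. That was Epha1, an epithelial Eph receptor, whose probe set 1432399_a_at was at 0.235, 0.668 and 0.444 at 3wk, 0.92, 1.5 and 1.057 at 4wk, 1.038 and 1.349 at 5wk, 0.664, 0.962 and 1.095 at 6wk, and 1.192, 1.528 and 0.962 at 7wk. The 3wk arrays were low and the later ages did not separate from each other. The 7wk value was 2.93-fold that at 3wk (log2 1.55, SE 0.35, 95% interval 0.77 to 2.33, adjusted p = 0.0212). Late against early, where the higher 4wk arrays count as early, the difference was 0.60 (adjusted p = 0.131).

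The Epha1 call rests on a faint probe set with a median of 180 steps. It was lost without 3wk A (1.15, adjusted p = 0.0539), 7wk A (1.56, adjusted p = 0.0611) or 7wk B (1.38, adjusted p = 0.0789). The gene's second tested probe set, 1432400_at, was at 1.376, 0.508 and 1.58 at 3wk, 0.948, 0.748 and 1.452 at 4wk, 1.563 and 0.866 at 5wk, 0.625, 1.052 and 0.607 at 6wk, and 1.224, 0.919 and 1.389 at 7wk. It showed no order by age and a difference of 0.17 (SE 0.43). The remaining one was too faint to test.

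Epha2, the Eph receptor tied to duct branching, was at 0.805, 0.765 and 0.774 at 3wk, 0.767, 0.622 and 1.069 at 4wk, 1.089 and 1.196 at 5wk, 0.931, 1.095 and 1.048 at 6wk, and 1.069, 1.004 and 0.996 at 7wk. All later arrays were above the 3 at 3wk except 2 of those at 4wk. The 7wk difference of 0.39 (95% interval 0.01 to 0.77) had an adjusted p of 0.205, and the late difference of 0.37 one of 0.0585. Without 4wk C, the high array of its age, the late difference was 0.48 and called (adjusted p = 0.00737). Ephb3 was at 0.518, 0.591 and 0.324 at 3wk and at 1.008, 0.914 and 1.417 at 7wk, 1.24 higher with no overlap (SE 0.36, adjusted p = 0.0591). Ephb4, the receptor of ephrin B2 in veins and in mammary epithelium, was at 1.137, 0.975 and 0.983 at 3wk, 0.993, 0.637 and 1.505 at 4wk, 1.268 and 0.858 at 5wk, 0.858, 0.693 and 1.506 at 6wk, and 1.179, 1.206 and 1.007 at 7wk. Its ages overlapped, with a difference of 0.13 (-0.59 to 0.85).

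None of the 13 tested ephrin probe sets (8 genes) was called, and their 7wk differences had a median of 0.16. Efnb2, the arterial ephrin that Ephb4 binds, was at 1.17, 0.698 and 0.985 at 3wk, 0.809, 1.056 and 2.806 at 4wk, 1.42 and 0.424 at 5wk, 1.015, 0.74 and 1.212 at 6wk, and 1.492, 0.438 and 0.456 at 7wk in probe set 1419638_at. Its arrays overlapped at every age, and the 7wk difference of -0.48 had an interval of -1.78 to 0.83. The other tested Efnb2 probe sets differed by -0.27 and 0.20. Efnb3 was 2.05 higher at 7wk (95% interval 0.25 to 3.86, adjusted p = 0.160), from 0.268, 0.143 and 0.922 at 3wk to 1.393, 1.303 and 1.388 at 7wk, with 5wk B and 6wk A as low as 3wk (0.19 and 0.228). Unc50, which belongs to none of these families, differed by -0.22 to -0.12 in its 3 probe sets, none called.

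**Figure D3:**
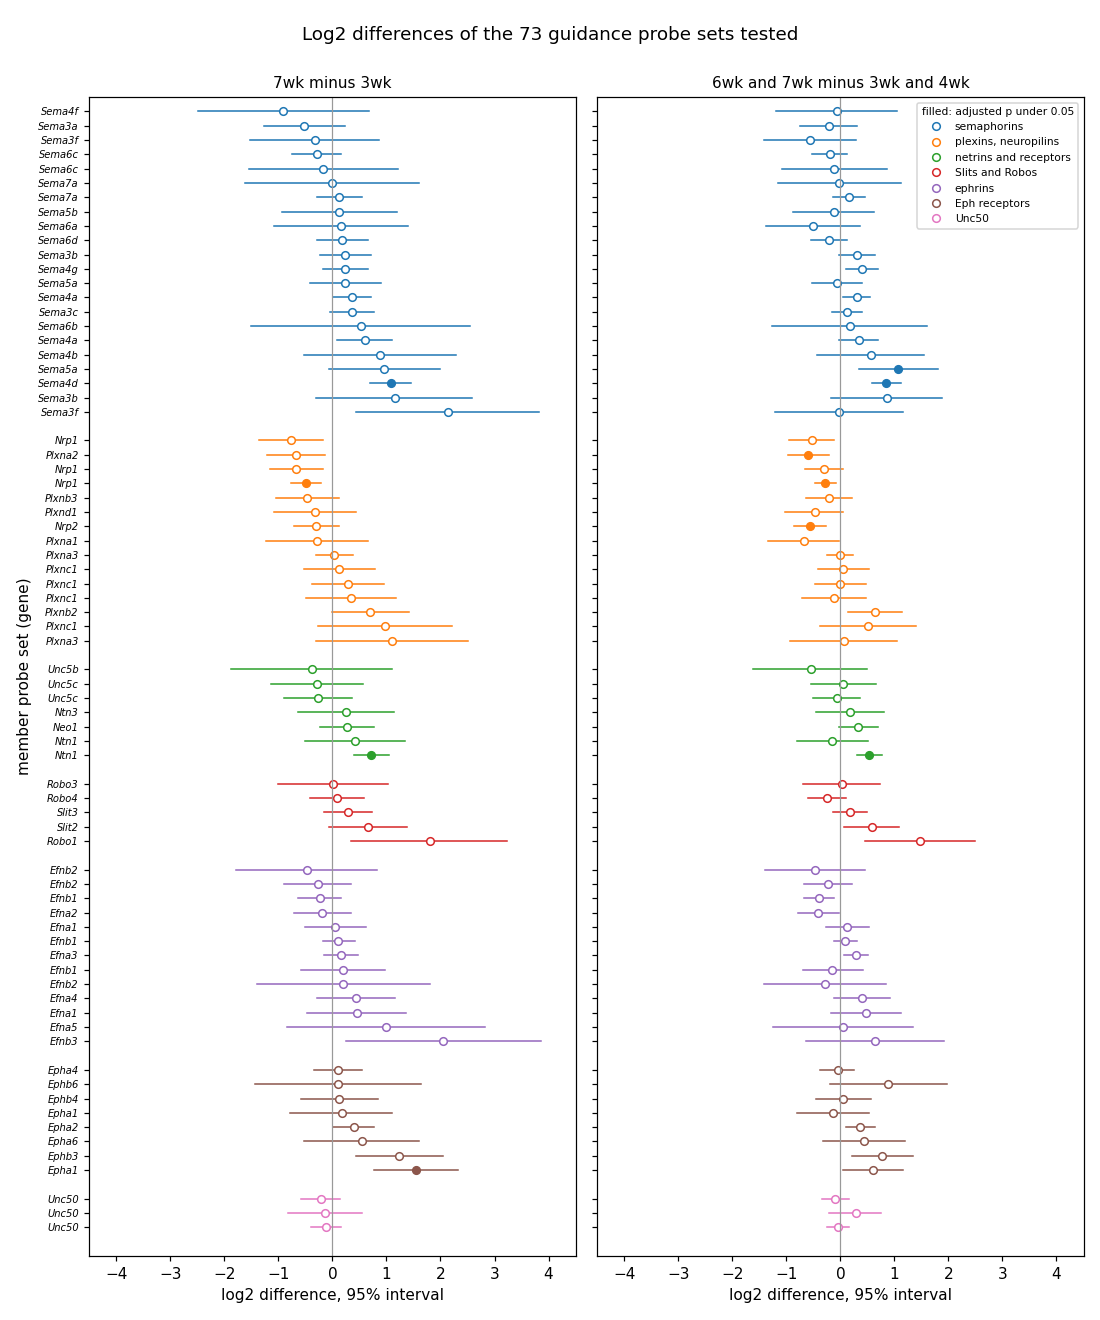
Log2 difference with its 95% interval for each of the 73 tested guidance probe sets, 7wk minus 3wk on the left and late minus early on the right, by family; filled points passed the threshold. Most Eph and Slit or Robo points lie right of 0 on the left panel, and 11 of 15 plexin and neuropilin points lie left of 0 on the right panel. Of all probe sets tested, 58.6% were above 0 for 7wk minus 3wk and 56.1% for late minus early.

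Counted together, 3 of the 73 probe sets rose between 3wk and 7wk, where 5.93% of all probe sets tested did, and 1 fell, where 2.60% did. Late against early 3 rose, where 10.1% of all did, and 3 fell, where 6.30% did. Fitted on the 3wk and 7wk arrays alone, the 7wk calls of Ntn1 (adjusted p = 0.067), Epha1 (0.0992) and Nrp1 (0.147) were lost. The count was then 2, the other being Sema3f, which was not called with all 14 arrays but was without 6wk C or without both 6wk A and B. Averaged per gene, the shares of all 10689 genes were 7.09% rising and 2.98% falling at 7wk, and 11.3% and 6.20% late against early. The arrays of 7wk lay wholly above those of 3wk for 12 guidance probe sets (18.5% of all) and wholly below for 4 (9.83% of all). The late arrays lay wholly above the early ones for 2 (5.09% of all) and wholly below for 1 (2.60% of all). Each of these counts was read against its background only, with no allowance for the larger SE of the guidance probe sets. No test of the difference was made.

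With no adjustment, 14 of the 73 had a p under 0.05 over the 5 ages (27.6% of all), 14 between 3wk and 7wk (22.7% of all) and 19 late against early (30.5% of all). No guidance probe set was called from 3wk to 4wk (0.151% of all), from 4wk to 5wk (0.751%), from 5wk to 6wk (0.281%) or from 6wk to 7wk (0.956%) by limma. Unadjusted, these steps had 5 (10.3% of all), 8 (14.9%), 8 (10.5%) and 7 (14.0%).

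**Figure D4:**
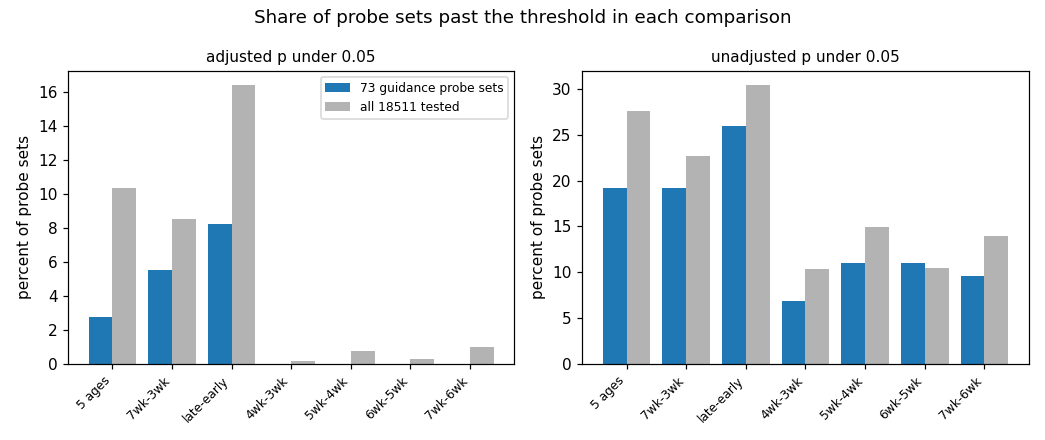
Percent of probe sets past the threshold in each comparison, for the 73 guidance probe sets (blue) and all 18511 tested (grey), with adjusted p on the left and unadjusted p on the right. Over the 5 ages 2.74% of guidance probe sets and 10.3% of all passed with adjustment.

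Several genes had more than 1 tested probe set, which shows how far a single one can be trusted. Of 16 such genes, 12 had all their probe sets on one side of 0 at 7wk against 3wk and 7 late against early. Nrp1, Sema3b, Sema4a, Sema6c and Efna1 kept one sign in both comparisons. Ntn1, Epha1 and Sema5a, each called in 1 probe set, had probe sets of opposite sign late against early.

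The genes that carry or share guidance signals were counted from lists of partners. Over all genes tested, 7.09% rose and 2.98% fell at 7wk against 3wk. Of 19 tested co-receptors and other ligands 4 rose in that comparison and none fell. These were Sdc1, an epithelial heparan sulfate carrier (1.89, SE 0.20, adjusted p = 0.00024), Erbb2, which associates with plexin B receptors (1.12, SE 0.13, adjusted p = 0.000438), Itga3 (1.53, adjusted p = 0.0475) and Cxcr4 (0.85, adjusted p = 0.0427). Of 17 semaphorin and plexin signalling genes 2 rose, the small GTPase Rras2 (0.50, adjusted p = 0.0335) and the cofilin kinase Limk2 (0.97, adjusted p = 0.0483). Of 20 genes of Slit, Robo and netrin signalling 2 rose, the adaptor Nck2 (2.31, SE 0.30, adjusted p = 0.000838) and the ubiquitin ligase Siah2 (0.98, adjusted p = 0.0326). Of 19 in Eph and ephrin signalling 3 rose, the adaptor Grb7 (1.29, SE 0.17, adjusted p = 0.000838), the exchange factor Vav3 (0.81, adjusted p = 0.0343) and the protease Adam10, which cleaves ephrins (0.61, adjusted p = 0.0222). None fell in these 3 lists. Late against early the rises and falls were 4 and 2, 2 and 0, 5 and 0, and 5 and 2, in the same order of lists, where 11.3% of all genes rose and 6.20% fell. The medians of the 4 lists at 7wk were -0.01, 0.29, 0.29 and 0.37, and that of all genes tested 0.09.

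Markers of the epithelium rose over the same weeks. All 9 tested luminal markers rose in both comparisons, and their mean log2 ratio went from -1.94 ± 0.45 at 3wk (arrays from -2.45 to -1.59) through -1.02 ± 0.32 at 4wk to 0.71 ± 0.08 at 7wk (0.62 to 0.78). Of 8 basal markers 4 rose at 7wk, and the list went from -0.92 ± 0.09 to 0.08 ± 0.16. The 3wk A array, lowest for luminal markers, was also the lowest array in the called probe sets of Sema4d, Ntn1 and Epha1. Its low values were not limited to luminal markers. That array was also the lowest for the fibroblast (-0.34) and macrophage (-0.59) markers and for the 4 partner lists. For basal markers it was the highest of the 3wk arrays (-0.81). In the called Sema5a probe set it was the highest early array (1.181), and the second probe set of Ntn1 was lowest in 6wk C (0.306). The part of epithelial content in the rises of Sema4d, Ntn1, Epha1 and Sema5a was not tested. Macrophage markers (7 tested) had 1 rise, Cd14, and 1 fall, Cd163, at 7wk. Of 7 fibroblast markers 1 fell (Col1a2), of 4 Schwann and nerve markers Sox10 rose and Mbp and Pmp22 fell, and 0 of 4 skeletal muscle markers were called at 7wk against 3wk. Late against early 1 of those 4 rose, Myh4 (1.81, adjusted p = 0.0252).

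**Figure D5:**
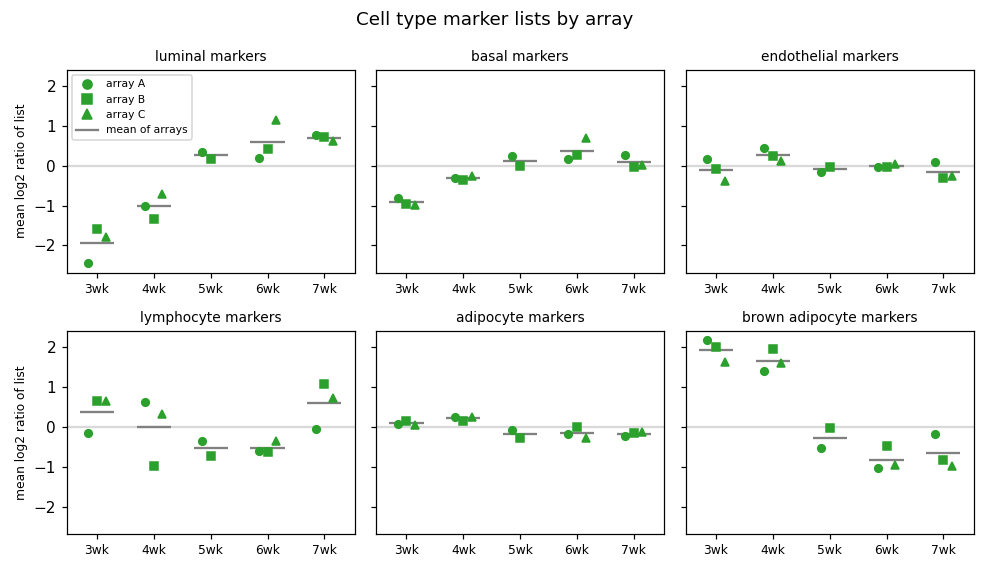
Mean log2 ratio of 6 cell type marker lists against age, with points for arrays and bars for their mean. Luminal markers climb from -1.94 at 3wk to 0.71 at 7wk, brown adipocyte markers fall from 1.94 to -0.66, and the endothelial and lymphocyte lists show no steady course.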

How the data were processed

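The authors' deposited table holds linear ratios, each probe set divided by its own median over the 14 arrays (98.48% of medians were 1 within 0.001). The signals' software and scaling are not stated in the labels. In 337 probe sets with a lower median a common divisor had been used, which gave each array's step and, through it, the level of 6473 probe sets, and those below 200 steps on all arrays or all but 1 (4115) were removed with 64 controls. Gene names came from the platform annotation, where 20380 probe sets name 1 gene, and promoters from RefSeq (GRCm38.p6).

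Log2 ratios of all 14 arrays were fitted with limma 3.58.1 (R 4.3.3), age being the factor, giving an F test and 6 contrasts, two-sided, with Benjamini-Hochberg adjustment over the 18511 probe sets tested. The fit was tested on simulated data. Partner and marker lists used the mean over a gene's probe sets. Genes were named if called, with values by array for these and for 12 genes listed for their known roles (Ntn1, Neo1, Unc5b, Slit2, Slit3, Robo1, Nrp1, Plxnd1, Sema3c, Epha2, Ephb4 and Efnb2). Sema3f, Sema4a, Ephb3, Efnb3, Plxnb2 and the other members given with values were picked after their values were seen. The members and lists were chosen with earlier results of these data known. The precision is limited by the number of arrays.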

Additional observations from a re-analysis of the deposited data

How the results depend on the processing

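Counts of called guidance probe sets depended on the processing. Between 3wk and 7wk (4 called) the count was 0 with the hybridisation controls as a covariate, 2 with only the arrays of the ages compared (one of them Sema3f, not called with all arrays), 1 with the pyruvate carboxylase 5' to 3' ratio as a covariate (chosen after seeing the data) and 1 to 5 with 1 array omitted. Late against early (6 called) it was 3 with no filter on level, 0 with the hybridisation controls, 1 with the actin 5' to 3' ratio, 0 with the pyruvate carboxylase ratio and 3 to 7 with 1 array omitted. Over the 5 ages (2 called) it was 4 after quantile normalization, 0 with the hybridisation controls, 1 with both 6wk A and B omitted (also chosen after seeing the data) and 1 to 4 with 1 array omitted. The steps from 4wk to 5wk and from 6wk to 7wk (0 called by limma, 8 and 7 at an unadjusted p under 0.05) had 0 to 1 with 1 array omitted. Over all probe sets tested, the calls between 3wk and 7wk went from 1579 to 352 with the hybridisation controls and to 605 with only the arrays of the ages compared. The causes were not tested. With the replicate letter as a replicate block the count over the 5 ages was 4. Arrays of one letter did not deviate together (correlations -0.0675 to 0.083 over 26 pairs), and the labels do not say what a letter stands for. No called difference changed sign in the alternatives run. Of 832 values of named probe sets under these alternatives, 726 kept their side of the threshold, 92 lost a call and 14 gained one. Most of the 832 belong to results that were not called in the main fit and so had no call to lose. The 832 cover only differences at 7wk against 3wk and late against early, so all 92 losses fall on the 4 calls of the first and the 6 of the second. The 2 calls over the 5 ages were not among them. Of those, the Ntn1 call was lost in 6 of the 14 fits that omit an array and the Sema4d call in 0. Faint probe sets limit what could be detected.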
